A study of Mus musculus with 16 samples.

Results

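A>C and T>G changes in mitochondrial DNA are described here in cells sorted from mouse femurs. An A>C or T>G allele is a position whose reference base is A, read as C, or whose reference base is T, read as G. All such alleles were taken, with no threshold, which gave 5629 A>C and 4681 T>G alleles, 10310 of the 48897 alleles in all. The mice were 3 months old and all PolG D257A/D257A, with the mutation in both copies of the mitochondrial DNA polymerase gene, and there is no group with normal proofreading. Femurs were digested, 8 subsets named CD29, CD24, CD24_CD29, CD105, 6C3, Thy, Thy_6C3 and CD45 were sorted by flow cytometry, and each gave ATAC-seq libraries (open DNA cut and tagged by Tn5 transposase) numbered replicate 1 and 2. All are labelled as skeletal cells, although CD45 is a surface protein of blood cells. The labels give neither the gates nor the number of mice behind a library. The p-values below therefore measure the spread between these libraries, or between the means of their subsets, alone. That spread may be technical. No expression was measured, so the sorted cell types could not be checked against marker genes. The class was chosen by the A>C and T>G fractions of Thy replicate 2, which were raised across the genome. Values of that library are therefore a description without a test, and tests used the 14 libraries of the other 7 subsets.

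A>C on one strand of DNA is T>G on the other, so both changes can come from the same altered base pair. The change swaps a purine for a pyrimidine or the reverse, and is a transversion. The proofreading domain of PolG removes wrongly inserted bases, and mice without it gather mitochondrial mutations in which transitions (A>G, G>A, C>T and T>C) predominate. Mitochondrial DNA has a heavy and a light strand that differ in base content, and the mouse reference shows the light strand, which is poor in G. The deposited counts do not give the strand of a read. Strand balance thus means A>C at reference A against T>G at reference T.

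In the sequences below, changed bases are in capitals. These sequences show the alleles that recurred in all libraries and some that were high in a single library or replicate number. They are 5′ to 3′ on the reference strand, read from the reference bases in the deposited coverage table (GRCm38 mitochondrial sequence, positions counted from 1).
A16099C, T16105G and T16108G, control region, 16089 to 16118: caaaccccccAcccccTccTcttaatgcca
T3877G, methionine transfer RNA gene TrnM, 3867 to 3887: atcgggcccaTaccccgaaaa
A7024C, COX2, 7014 to 7034: tggcctacccAttccaacttg
A315C, small ribosomal RNA gene mt-Rnr1, 305 to 325: cgtgccagccAccgcggtcat
These 6 alleles were at 1% or more in all 15 libraries other than Thy replicate 2. The control region window is a stretch of C that holds the changed A and T.
T2538G to T2544G, large ribosomal RNA gene mt-Rnr2, 2528 to 2554: tccaggtcggTTTcTaTctatttacga
A5277C and A5278C, tyrosine transfer RNA gene TrnY, 5267 to 5288: aagaggatttAAacctctgtgt
T10913G, ND4, 10903 to 10923: tctccattatTctagacccac
The first of these was high in CD105 replicate 2, the next in Thy replicate 1, and T10913G in every library numbered 2.

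Mean coverage ran from 6569 counts per position in CD24_CD29 replicate 2 to 77252 in CD29 replicate 1. The libraries held 52333 to 420300 A>C counts and 37674 to 312842 T>G counts, with 843440 and 613788 in Thy replicate 2. Where no count was found, a fraction of 0.0457% was still possible in CD24_CD29 replicate 2 and of 0.00388% in CD29 replicate 1, taken as 3 counts at mean coverage. Coverage at reference A and at reference T was alike, at 19540 and 19675 in Thy replicate 2. Intervals and limits cover counting error only.

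The level of a change was the mean of its allele fractions over all its sites, in counts per 10000 of coverage. The A>C level was 10.7 and 10.3 in CD45 (replicates 1 and 2), 9.58 and 9.47 in 6C3, 9.84 and 9.48 in Thy_6C3, and 10.9 and 10.9 in CD105. It was 9.88 and 8.75 in CD24, 10.2 and 14.2 in CD24_CD29, and 9.63 and 9.32 in CD29. Thy replicate 1 had 11.1, and Thy replicate 2 stood alone at 76.5. The T>G level was lower than the A>C level in each of the 16 libraries. It was 9.61 and 9.19 in CD45, 8.76 and 8.44 in 6C3, 8.71 and 8.62 in Thy_6C3, and 9.65 and 10.2 in CD105. It was 8.90 and 7.88 in CD24, 9.09 and 12.2 in CD24_CD29, and 8.65 and 8.44 in CD29. In Thy it was 9.53 in replicate 1 and 66.5 in replicate 2. CD24_CD29 replicate 2, the shallowest library, was thus the next highest for both changes, and lay above all 14 others besides Thy replicate 2.

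**Figure D1:**
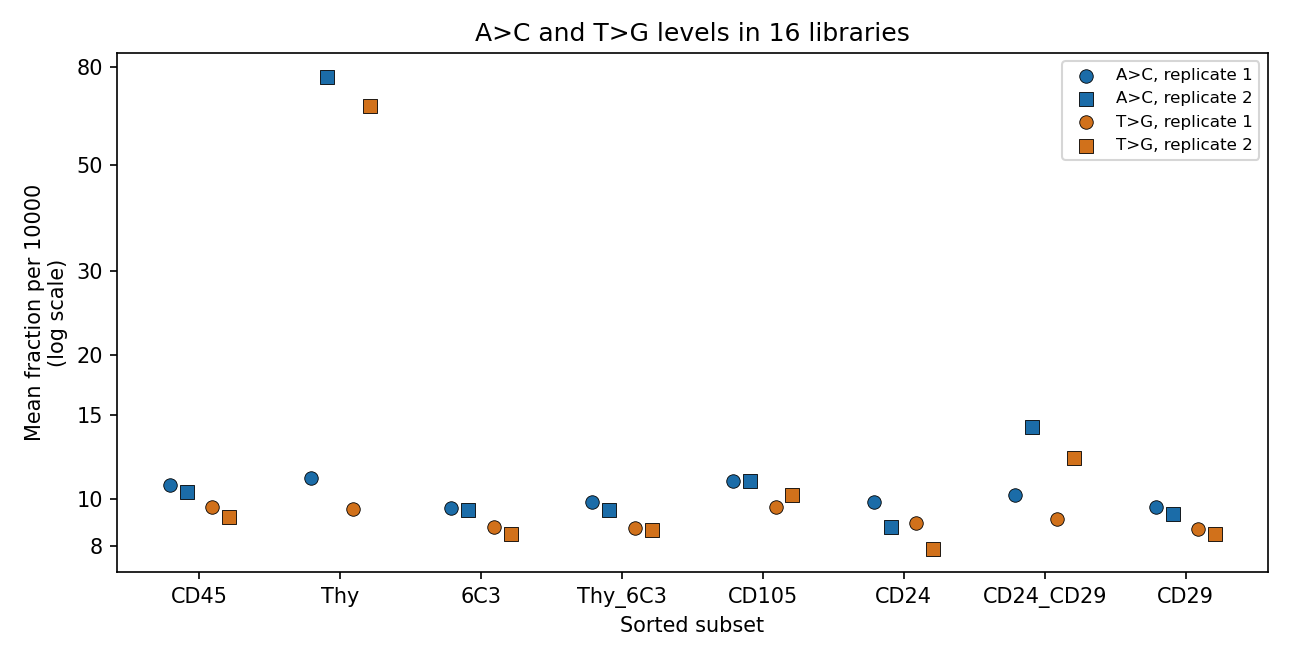
Mean A>C and T>G fraction per 10000 (log scale) in each of the 16 libraries, by subset, with 1 point per library and change. Thy replicate 2 stands at 76.5 and 66.5 and CD24_CD29 replicate 2 at 14.2 and 12.2, while the other 14 libraries lie between 7.88 and 11.1.

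Between the 7 subsets without Thy, neither change differed beyond the spread between replicates. Subsets held a share of 0.604 of the variance of the A>C level (exact permutation p = 0.193 over 135135 pairings, one-sided, 0.280 adjusted over 4 measures by the Benjamini-Hochberg method). For T>G the share was 0.606 (exact permutation p = 0.179, adjusted 0.280). The CD24_CD29 libraries moved this result. Without replicate 2 of that subset the shares were 0.840 and 0.814 (adjusted exact permutation p = 0.0867 for both). With the subset left out, they were 0.838 and 0.813 (adjusted exact permutation p = 0.0600 for both). Without CD24_CD29 replicate 1 alone they were 0.962 and 0.942 (adjusted exact permutation p = 0.00462 for both), but there the high replicate 2 is alone in its subset and has no spread of its own. The mean levels of the others ran from 9.31 ± 0.800 (SD, n = 2) in CD24 to 10.9 ± 0.00523 (SD, n = 2) in CD105 for A>C, and from 8.39 ± 0.722 to 9.92 ± 0.388 in the same subsets for T>G.

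No difference between replicate numbers passed the test either. The A>C level of replicate 2 minus that of replicate 1 averaged 0.240 per 10000 over 7 subsets (exact permutation p = 1, two-sided), and the T>G difference averaged 0.231 (exact permutation p = 0.859). Without CD24_CD29 both differences turned negative, at -0.382 and -0.252 (adjusted exact permutation p = 0.0938 and 0.469). Across the 14 libraries the A>C and T>G levels rose and fell together, with r = 0.989 and rho = 0.978, and r = 0.960 without CD24_CD29 replicate 2 and CD24 replicate 2. The 2 levels come from the same reads. Depth on a log2 scale and the A>C level had r = -0.515 and rho = -0.262, but r = 0.119 without CD29 replicate 1 and CD24_CD29 replicate 2, so that relation rests on those libraries.

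Thy replicate 2 had 7.75 times the median A>C level of the other 15 libraries and 7.48 times the median T>G level. The remaining 10 changes were raised less there. G>C was 3.58 times the median, C>G 2.55, T>A 2.50, A>T 2.03, G>T 1.94 and C>A 1.88 times. The 4 transitions were at 1.09 (G>A), 1.13 (C>T), 1.13 (A>G) and 1.23 times (T>C). All transversions were thus higher in this library than its transitions were, relative to the others, and A>C and T>G by the most. In CD24_CD29 replicate 2 the same changes led, with A>C at 1.44 and T>G at 1.38 times the median of the other 14 and the remaining changes between 0.928 and 1.16 times. The class made up 12.04% to 17.7% of the summed non-reference fraction in the 15 libraries and 40.9% in Thy replicate 2. At reference A, C was 20.1% to 31.2% of the non-reference bases in the 15 and 59.98% in Thy replicate 2. At reference T, G was 15.4% to 25.7% and 51.0%.

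The excess in Thy replicate 2 was spread over nearly all sites. Its fraction was above the mean of the other 15 libraries at 99.95% of A>C sites and 99.98% of T>G sites, against 24.1% to 72.9% and 25.4% to 69.9% in the single libraries of the 15, each of which enters that mean. The median site stood at 0.676% for A>C and 0.591% for T>G in Thy replicate 2. In the 15 libraries the median site stood at 0.0602% to 0.103% for A>C and 0.0531% to 0.0895% for T>G. The top 1% of sites held 3.37% of the A>C level in Thy replicate 2 and 7.56% to 9.55% in the others, so the level was shared more evenly there. No counts were found at 1 A>C site and 1 T>G site of Thy replicate 2. In the 15, such sites numbered 4 to 257 for A>C and 1 to 247 for T>G, with the most in the shallowest library.

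Alleles at 1% or more with at least 5 counts were counted in each library, against the share of all 48897 alleles that met the same limits. In CD45 the class had 20 (0.194%) in replicate 1 and 18 (0.175%) in replicate 2, where 0.247% and 0.264% of all alleles were counted. 6C3 had 16 (0.155%) and 16 (0.155%), against 0.299% and 0.243%. Thy_6C3 had 13 (0.126%) and 19 (0.184%), against 0.29% and 0.544%. In these libraries the class share was below the share of all alleles, and the same held for the rest of the 15. In CD105 the class had 16 (0.155%) in replicate 1 and 22 (0.213%) in replicate 2, where 0.2% and 0.245% of all alleles were counted. CD24 had 19 (0.184%) and 20 (0.194%), against 0.284% and 0.256%. CD29 had 16 (0.155%) and 15 (0.145%), against 0.231% and 0.413%. The highest counts of both kinds outside Thy replicate 2 were in the shallowest library. In CD24_CD29 the class had 20 (0.194%) in replicate 1 and 36 (0.349%) in replicate 2, where 0.573% and 0.851% of all alleles were counted. In Thy replicate 1 it had 19 (0.184%, against 0.301%). In Thy replicate 2 the count was 1421 for A>C and 757 for T>G, together 21.1% of the class, where 5.17% of all alleles were counted. No difference between the 7 subsets in this number passed the test (share 0.572, exact permutation p = 0.210, one-sided, adjusted 0.280).

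Sites that were high in the other libraries were high in Thy replicate 2. Across sites, rho between Thy replicate 2 and the mean of the 15 was 0.904 for A>C (5629 sites) and 0.899 for T>G (4681 sites), over sites that share base composition and libraries. When sites were put in 10 equal groups by the mean of the 15, the lowest A>C group averaged 0.0170% in the 15 and 0.240% in Thy replicate 2, a ratio of 14.2. The highest averaged 0.327% and 1.59%, a ratio of 4.87. The difference in percentage points ran the other way, from 0.223 in the lowest group to 1.27 in the highest. T>G sites showed the same pattern, with ratios from 13.4 to 4.63 and differences from 0.214 to 1.09 points. The library was thus raised neither by a single factor nor by a single amount.

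**Figure D2:**
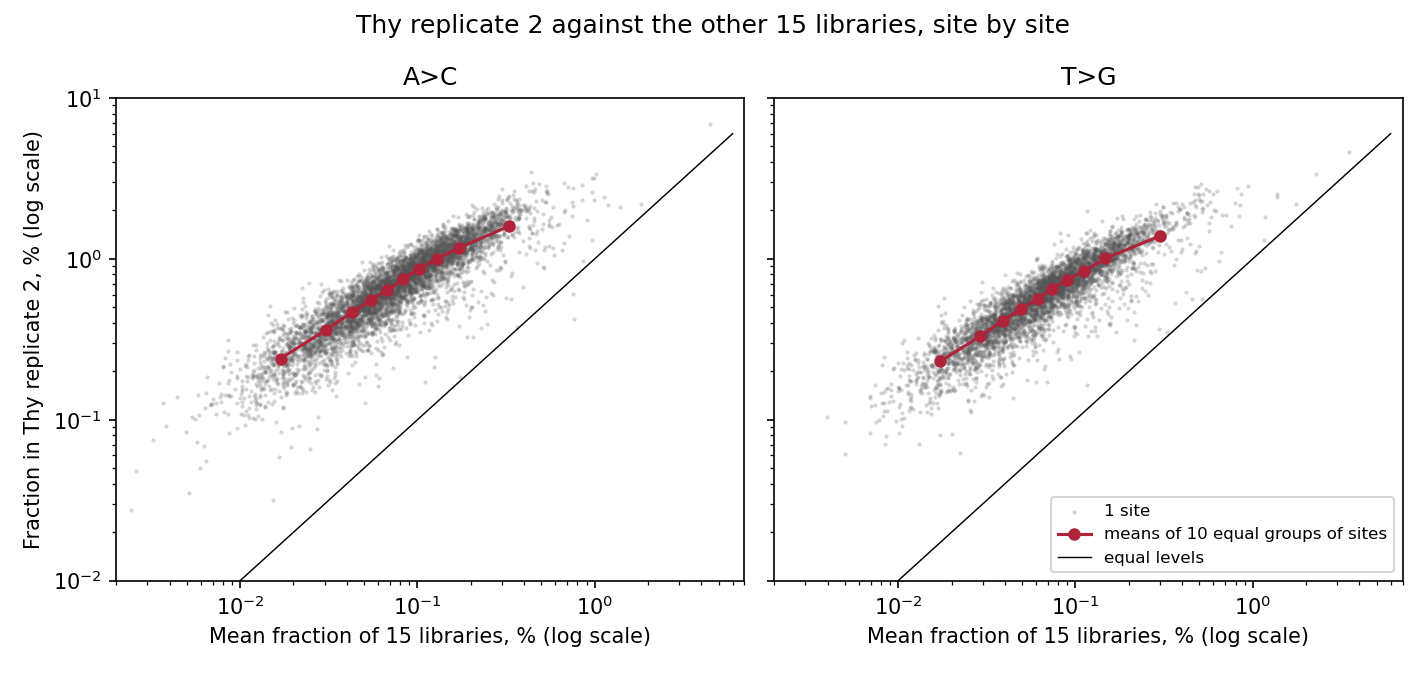
Fraction in Thy replicate 2 against the mean of the other 15 libraries (both in %, log scales), with 1 grey point per A>C or T>G site with a value above 0, red points for the means of 10 equal groups of sites and a line of equal levels. Nearly all sites lie above the line, by 14.2 times in the lowest A>C group and 4.87 times in the highest.

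Strand balance was close to even in every library, with A>C ahead. The T>G level divided by the A>C level was 0.861 to 0.935 in the 15 libraries and 0.869 in Thy replicate 2, inside that range. On the log2 scale the ratio averaged -0.16 over 7 subsets (exact permutation p = 0.0156, two-sided, the smallest the design can give, 0.0195 adjusted over 5 measures). No difference in it passed the test between subsets (share 0.372, exact permutation p = 0.709, one-sided) or between replicate numbers (difference 0.0047 on the log2 scale, exact permutation p = 0.813). With the median over sites in place of the mean, the difference between numbers was -0.022 (adjusted exact permutation p = 0.0469), so the sign and the call changed. Reference A and reference T have different neighbours. With the 16 neighbour pairs weighted equally, and each A>C context set against the T>G context of its reverse complement, the ratio was 0.890 to 0.963 in the 15 libraries and 0.896 in Thy replicate 2. The log2 mean over 7 subsets was then -0.10 (adjusted exact permutation p = 0.0195). When only alleles under 1% in all 16 libraries were kept, which removes the sites that were high in Thy replicate 2, the log2 ratio was 0.019 (adjusted exact permutation p = 0.0391), so the sign turned. With the same limit on the 15 libraries alone it was -0.15.

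The base before the A had the largest relation to the A>C level. After G the level was 3.61 ± 0.464 per 10000 (SD, n = 15 libraries), after T 9.88 ± 1.24, after C 10.96 ± 1.13 and after A 12.5 ± 1.71. The level after G divided by that after another base was 0.295 to 0.358 in the 15 libraries and 0.417 in Thy replicate 2, below 1 in 16 of 16 libraries. T>G was lowest beside the mirrored base, but with a smaller contrast and another order of the remaining bases. T before C, the reverse complement of A after G, had 5.83 ± 0.512 per 10000, against 8.19 ± 0.810 before G, 9.64 ± 1.15 before A and 11.7 ± 1.41 before T. The level before C divided by that before another base was 0.526 to 0.621 in the 15 and 0.557 in Thy replicate 2. These contrasts were picked after the values were seen and carry no test.

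The base on the other side mattered less. A followed by T had 12.6 ± 1.504 per 10000, against 8.53 ± 1.11 to 10.4 ± 1.26 before the other bases. T preceded by A, its mirror image, had 11.2 ± 1.24, against 7.44 ± 0.879 to 9.06 ± 0.971. The level of A before T over that before another base was 1.30 to 1.40 in the 15 libraries and 1.23 in Thy replicate 2. For T after A the ratio was 1.29 to 1.41 and 1.28. Thy replicate 2 therefore had the same order of neighbours, with a smaller range in 3 of these 4 contrasts. The contrast of T before C was inside the range of the others.

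Over pairs of neighbours, the highest A>C levels were at A between A and T, with 14.7 ± 1.91 per 10000 (SD, n = 15) over 574 sites, and between C and T, with 13.7 ± 1.49 over 418 sites. The lowest were between G and A, at 3.36 ± 0.435, and between G and C, at 3.44 ± 0.423. For T>G the highest were T between A and T (13.8 ± 1.65, 570 sites) and between A and A (11.9 ± 1.33). The lowest were T between G and C (4.18 ± 0.432, 87 sites) and between T and C (4.29 ± 0.636). In Thy replicate 2 these pairs had 104 and 91.1 (A>C, highest), 30.7 and 37.1 (lowest), 95.8 and 82.2 (T>G, highest) and 40.8 and 35.0 (lowest). The ratio to the mean of the 15 was 6.62 to 10.8 over the 16 A>C pairs and 5.46 to 9.76 over the 16 T>G pairs.

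**Figure D3:**
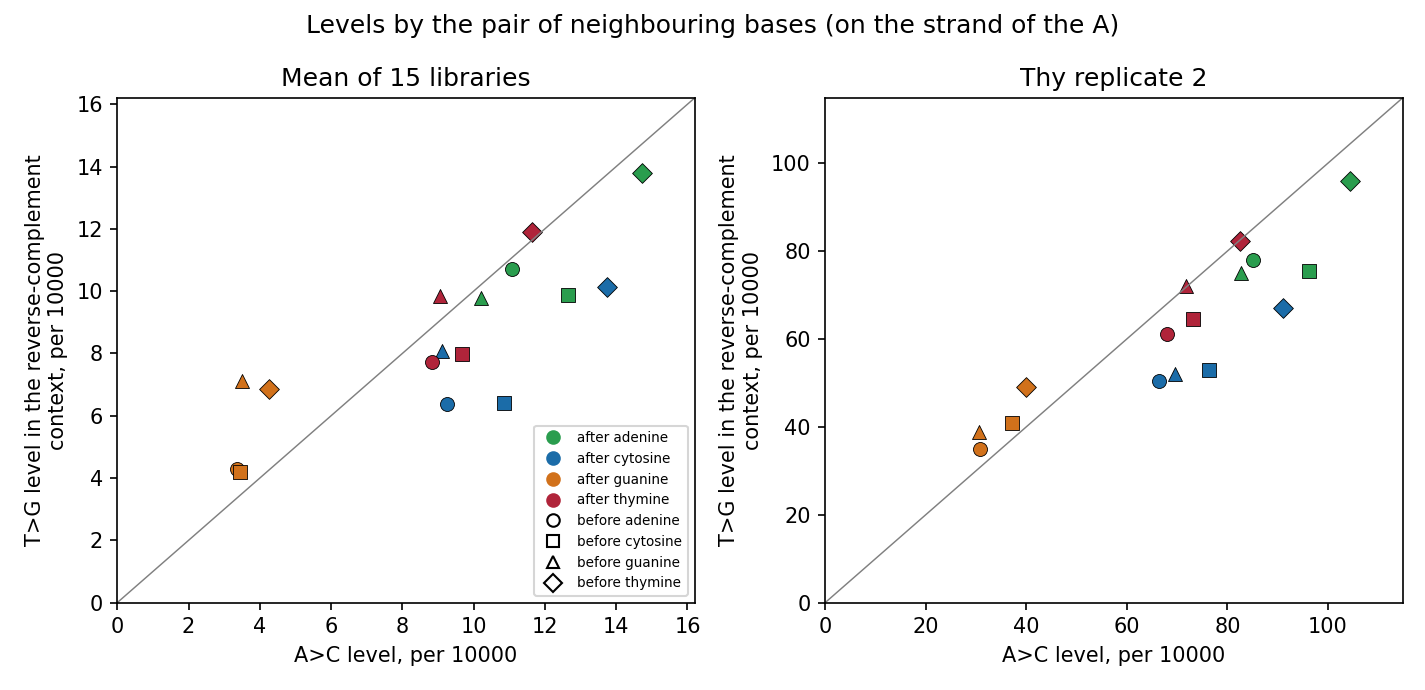
T>G level in each reverse-complement context against the A>C level (per 10000), with 1 point for each of 16 neighbour pairs, for the mean of 15 libraries (left) and Thy replicate 2 (right). Points after guanine are lowest on the A>C axis and lie above the line of equal levels, and those after cytosine lie below it.

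Set against its reverse complement, A>C followed T>G over the 16 pairs with r = 0.812 and rho = 0.800 in the mean of 15 libraries, and r = 0.892 and rho = 0.909 in Thy replicate 2. The pairs are not independent replicates. The strands were not equal in all contexts. T>G over A>C was 2.03 for A between G and G (7.12 against 3.50 per 10000) and 1.61 for A between G and T. T>G was higher in 15 of 15 libraries for all 4 contexts after G. The 7.12 includes T16105G and T16108G, both T between C and C, at means of 3.50% and 1.76%. The level without these alleles was not computed. For A between C and C the ratio was 0.591 (6.42 against 10.9), and T>G was lower in 15 of 15 libraries for all 4 contexts after C. The 10.9 includes A16099C and A315C, at means of 4.45% and 1.40%, and was not computed without them. In Thy replicate 2, with these alleles kept, the ratios between G and G, G and T, and C and C were 1.27, 1.23 and 0.692, nearer to 1. Whether those between G and G and between C and C would be nearer to 1 without them was not computed. The other contexts after C differed. Their ratio went from 0.889 to 0.746 before G, from 0.736 to 0.735 before T and from 0.689 to 0.760 before A.

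Whether the neighbour was the base that the change creates was tested for both sides and both changes. A after C had a log2 level 0.13 above A after another base (exact permutation p = 0.0156 over 7 subsets, two-sided, adjusted 0.0195). Against A after A or T alone, the ratio for A after C was 0.919 to 1.03 in the 15 libraries, below and above 1. The call was lost when alleles at 1% or more in any of the 15 libraries were left out (log2 0.014, adjusted exact permutation p = 0.281) or when coverage of 5000 was required (0.016, adjusted exact permutation p = 0.203). A before C against A before another base did not pass the test (log2 0.014, adjusted exact permutation p = 0.125), and under the same settings the difference was -0.053 and -0.030 (adjusted exact permutation p = 0.0195 for both). T>G after G differed from T>G after another base by a log2 value of -0.32, and T>G before G by -0.19 (adjusted exact permutation p = 0.0195 for both). With only alleles under 1% in all 16 libraries, the value before G was -0.0082 (adjusted exact permutation p = 0.781). Outside that setting T>G was thus lower, not higher, beside the base that it creates than beside the other bases joined. G was not the lowest neighbour on either side. T>G was 7.56 ± 0.944 per 10000 after G and 7.44 ± 0.879 after T (SD, n = 15). It was 8.19 ± 0.810 before G and 5.83 ± 0.512 before C. The remaining bases had higher levels than G on both sides.

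Beyond the direct neighbours, levels also varied with the bases 2, 3 and 5 positions away, chosen after their values were seen. With A>C and reverse-complemented T>G sites joined, C at 2 bases before the A went with 1.40 times the level of other bases (1.34 to 1.43 in the 15 libraries, 1.31 in Thy replicate 2). G at 3 bases before had 1.32 times (1.28 to 1.37, and 1.15) and G at 3 bases after had 1.32 times (1.27 to 1.36, and 1.16). T at 2 bases before had 0.728 times (0.704 to 0.769, and 0.819) and T at 3 bases before 0.738 times (0.720 to 0.764, and 0.809). G at 5 bases before had 0.788 times (0.767 to 0.818, and 0.828). Each of these 6 had the same side of 1 in all 15 libraries and in Thy replicate 2, and all lay nearer to 1 in Thy replicate 2. Some bases outside the chosen 6 lay farther from 1 there. C at 5 bases before had 1.07 times in the 15 and 1.13 in Thy replicate 2, and G at 4 bases before 0.970 and 0.885.

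**Figure D4:**
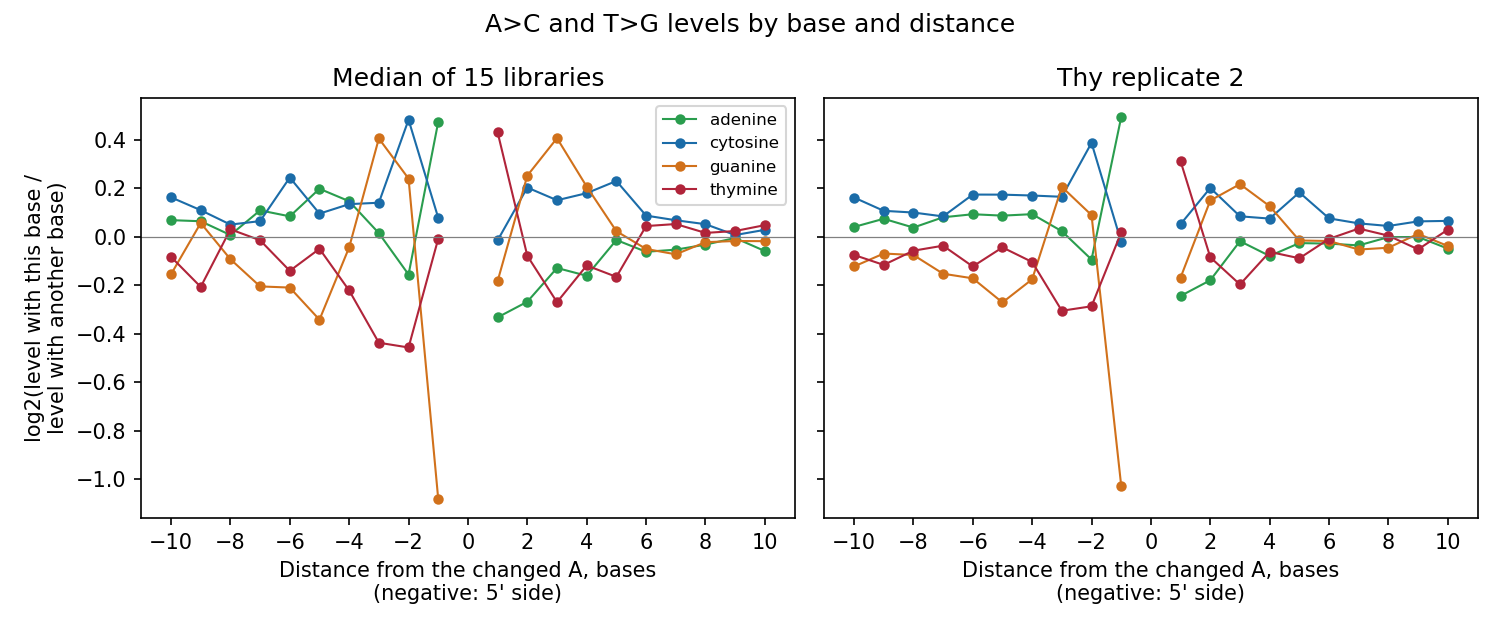
Log2 ratio of the joined A>C and T>G level with a given base to that with another base, by distance from the changed A (bases, negative on the 5′ side), as the median of 15 libraries (left) and in Thy replicate 2 (right). The lowest point in both panels is guanine directly before the A, at -1.08 and -1.03.

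Sites rich in the created base were high for A>C. With 6 or more C among the 10 nearest bases, 144 sites had a median A>C level of 21.3 per 10000 over the 15 libraries (19.2 to 24.7), and the median site stood at 11.6. With 0 or 1 C the level was 8.13 (7.36 to 12.3), and the median site stood at 5.85. In Thy replicate 2 the levels were 123 and 64.3. T>G was also high where C was frequent on the reference strand, which is not the reverse complement of the A>C pattern. There, 124 sites with 6 or more C had 16.3 (14.4 to 18.2) and sites with 0 or 1 had 7.30 (6.55 to 10.7). The median T>G site moved less, from 5.80 to 6.86, so the mean and the typical site differed there. Without the class alleles at 1% or more in all 15 libraries, 2 for each change, the mean of the 15 libraries at sites with 6 or more C fell from 21.6 ± 1.45 to 17.8 ± 1.64 for A>C and from 16.6 ± 1.07 to 12.1 ± 1.01 for T>G (SD, n = 15). With 4 or 5 G, the base it creates, T>G had a median level of 7.76 and with 0 or 1 G 9.30. Run length of the reference base had a smaller relation. A in a run of 2 had 10.95 per 10000 and in a run of 5 or more 8.77, and T had 9.83 and 6.14, against 9.36 and 8.67 for a lone A or T.

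Along the molecule the level was highest at the end of the control region, the non-coding stretch from 15423 to 16299 that holds the promoters and the heavy-strand origin. In the first 16 bins of 1000 positions the mean A>C level of the 15 libraries ran from 8.71 to 13.1 per 10000 and the T>G level from 8.31 to 10.1. The highest of these A>C bins, 13001 to 14000, had 13.1 ± 1.61 (SD, n = 15), and the other 15 had 8.71 to 11.2. In the last 299 positions (16001 to 16299), with 114 A and 86 T, the A>C and T>G levels were 21.5 ± 1.36 and 16.5 ± 1.30 (SD, n = 15). Single alleles, left out here after their values were seen, carried part of this. Without A16099C the A>C level there was 17.7 ± 1.47, and without T16105G and T16108G the T>G level was 10.6 ± 1.17, close to the highest other bin. Thy replicate 2 had 4.68 and 4.52 times the mean of the 15 there, and 6.77 to 8.15 times in the other bins.

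By kind of gene, A>C was 13.7 ± 1.09 per 10000 in the control region, 10.5 ± 1.29 in protein genes, 9.65 ± 1.37 in ribosomal RNA genes and 8.06 ± 1.27 in transfer RNA genes (SD, n = 15). T>G was 11.7 ± 1.05, 9.16 ± 1.01, 8.69 ± 1.48 and 8.74 ± 1.03. Each part was also set against the level that its own neighbour pairs have across the genome. The control region remained higher in 15 of 15 libraries, with a median of 1.30 times for both A>C and T>G. These ratios include the same 3 alleles as above. Without them the control region levels were 12.2 ± 1.19 and 9.77 ± 1.03, and the ratios were not computed. Transfer RNA genes were below 1 for A>C in 15 of 15 libraries (median 0.808). In Thy replicate 2 the control region was at 1.04 and 1.07 times and the transfer RNA genes at 0.861 and 0.926.

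Single genes with 20 or more sites spread more widely. For A>C the highest means of the 15 libraries were in TrnS1, a serine transfer RNA gene (15.1 ± 1.84), and ND6, the complex I gene read from the opposite strand (14.7 ± 1.92). The lowest were in the lysine gene TrnK (5.59 ± 0.903) and in TrnY (5.66 ± 8.44). Without Thy replicate 1, TrnY had 3.48 ± 0.542 and TrnK 5.50 ± 0.860 (SD, n = 14), so TrnY was then the lower. For T>G the highest were the cysteine gene TrnC (17.2 ± 2.32) and TrnS1 (15.2 ± 2.39), and the lowest the alanine gene TrnA (5.35 ± 0.630) and the threonine gene TrnT (5.63 ± 0.909). The transfer RNA genes compared held 20 to 32 sites of a change, so a single site weighs heavily there. ND6 holds 227 sites and lay at 1.36 times its neighbour-pair level, above 1 in 15 of 15 libraries.

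Codon position made little difference once neighbours were taken into account. A>C was 12.1 ± 1.48 per 10000 at the first codon position, 9.91 ± 1.24 at the second and 9.52 ± 1.18 at the third, but 1.02, 0.995 and 0.997 times the neighbour-pair level. T>G was 9.57 ± 1.01, 9.38 ± 1.08 and 8.28 ± 0.913, or 1.002, 0.996 and 1.0005 times. Synonymous alleles stood at 1.06 times that level for both changes and missense alleles at 0.983 (A>C) and 0.990 (T>G). Stop codons could be created by 299 T>G alleles, and by 23 A>C alleles. In the mitochondrial code these are changes such as TAT to TAG. The T>G stops had 11.4 ± 1.37 per 10000, or 0.991 times the neighbour-pair level, and the A>C stops 15.2 ± 1.65, or 1.22 times. All 23 A>C stops lie in ND6, where A>C as a whole was at 1.36 times. None of the 322 stop alleles reached 1% in any of the 15 libraries, where 66 class alleles did, or 0.64% of the class against 2.31% of all alleles.

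Of those 66 alleles, 39 were counted in exactly 1 of the 15 libraries, 21 in 2 to 14 and 6 in all 15. Transitions had 787 such alleles, 560 in exactly 1 library and 3 in all 15. The share found in all 15 was thus 9.09% in this class and 0.381% among transitions, while C>A and G>T, with 8 of 58, had 13.8%. CD24_CD29 replicate 2 held 18 of the 39 single-library alleles, CD105 replicate 2 held 5, Thy_6C3 replicate 2 held 4, and the others 0 to 3.

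The recurrent alleles stayed above 1% in both replicate numbers. A16099C was at 4.33% to 5.31% (median 4.69%) in the 8 libraries of replicate 1, at 2.74% to 4.77% (median 4.53%) in 7 libraries of replicate 2 and at 6.86% (95% exact interval 6.41 to 7.33) in Thy replicate 2. T16105G was at 3.19% to 4.66% (median 3.36%), 2.78% to 3.95% (median 3.63%) and 4.62% (4.25 to 5.02). T3877G was at 2.04% to 2.51% (median 2.32%), 2.01% to 2.44% (median 2.21%) and 3.35% (3.08 to 3.64). The ranges of the replicate numbers overlapped for each, and Thy replicate 2 lay above all others for A16099C and T3877G but below CD24 replicate 1 for T16105G. A7024C, a synonymous change (P4P) in the cytochrome c oxidase gene COX2, averaged 1.82% ± 0.143 (SD, n = 15). T16108G averaged 1.76% ± 0.215 and A315C 1.40% ± 0.215. In Thy replicate 2 these 3 were at 2.18%, 2.18% and 2.095%. The fraction there was 1.20 to 1.54 times the mean of the 15 over the 6 recurrent alleles, against 9.01 times at the median A>C site. In percentage points these alleles were raised by 0.362 (A7024C) to 2.41 (A16099C), against 0.601 at the median A>C site and 0.524 at the median T>G site.

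**Figure D5:**
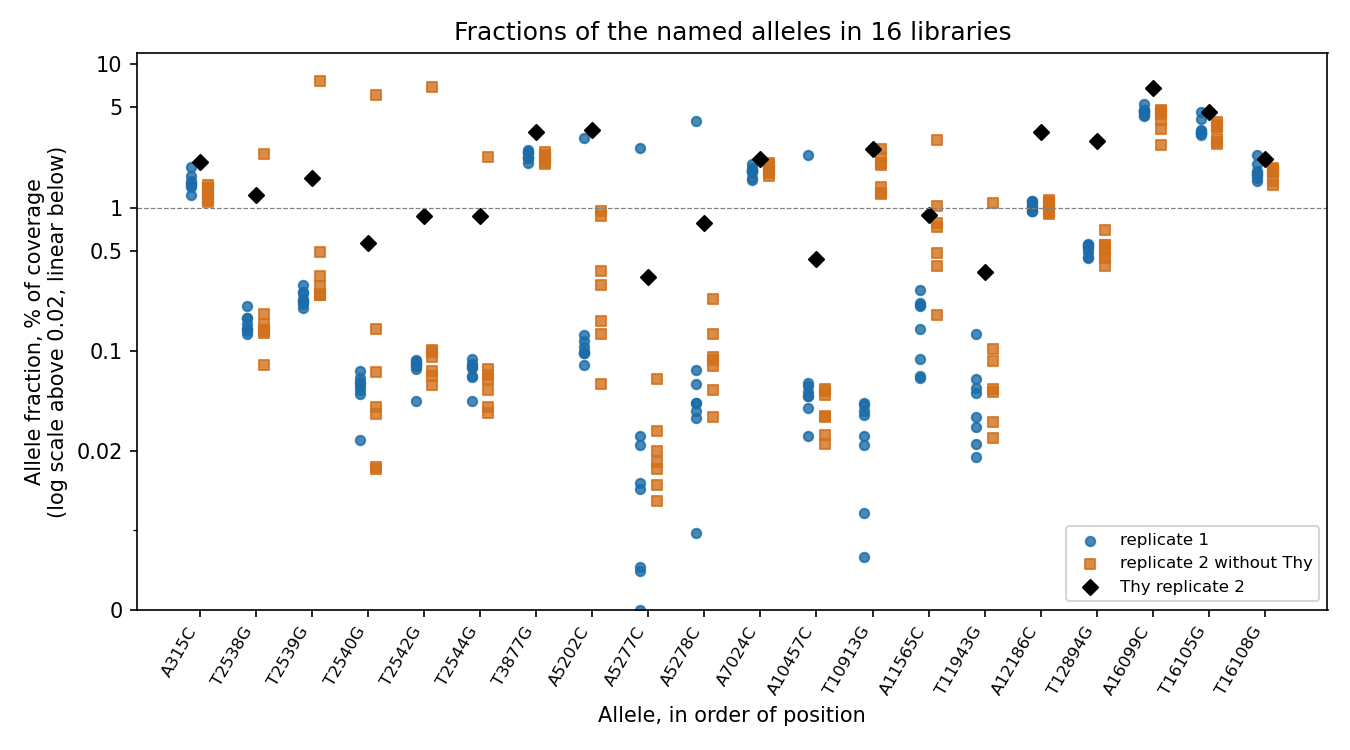
Fractions (% of coverage, log scale above 0.02 and linear below) of the named A>C and T>G alleles in order of position, with 1 point per library. The dashed line marks 1%. A16099C, T16105G, T16108G, T3877G, A7024C and A315C are above it in all 16 libraries, while single points of replicate 1 or 2 stand far above the rest at the alleles of single libraries.

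The highest alleles of Thy replicate 2 included A5202C in TrnC at 3.46% (95% exact interval 3.20 to 3.74). It was also at 3.07% (2.87 to 3.29) in Thy replicate 1, while the other 14 libraries had 0.0590% to 0.940%. The Thy libraries thus did not overlap with the rest at this allele, which was named for its value in Thy replicate 2. How many alleles separate the Thy libraries in this way was not counted, and a trait of the subset was not tested. A12186C (I149L in ND5, a complex I subunit) was at 3.38% in Thy replicate 2 and at 0.899% to 1.13% in the 15. T12894G (F385V in ND5) was at 2.93%, against 0.390% to 0.701%.

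A cluster of T>G alleles in mt-Rnr2 was high in CD105 replicate 2 alone of the 15. In that library T2538G was at 2.35%, T2539G at 7.64% (95% exact interval 7.26 to 8.04), T2540G at 6.07%, T2542G at 6.94% and T2544G at 2.25%. The next highest of the 15 had 0.205%, 0.486%, 0.141%, 0.101% and 0.0881%. CD105 replicate 1 had 0.255% at T2539G. All 5 T shown in capitals in that window were thus at 1% or more in a single library of the 15. In Thy replicate 2 the alleles were at 1.22%, 1.60%, 0.566%, 0.877% and 0.872%, so T2538G and T2539G passed 1% there too.

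TrnY had a pair of the same kind in Thy replicate 1. A5277C was at 2.60% (2.40 to 2.80, 95% exact interval) and A5278C at 4.04% (3.80 to 4.29) there. Elsewhere among the 15 they were at no more than 0.0638% and 0.228%, and in Thy replicate 2 at 0.327% and 0.778%. The values of A5278C outside Thy ran from 0.00966% in CD24_CD29 replicate 1 to 0.228% in CD29 replicate 2.

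Other alleles stood out in a library without a neighbouring high allele. A10457C, a synonymous change (S97S) in the complex I gene ND4, was at 2.32% (95% exact interval 2.12 to 2.54) in CD24 replicate 1, and 0.0596% was the highest value among the other 14. T11943G (W68G in ND5) was at 1.07% (0.920 to 1.24) in Thy_6C3 replicate 2, with 0.132% the next highest. A11565C in the histidine gene TrnH was at 2.94% (2.56 to 3.37) in CD24_CD29 replicate 2. It was not limited to that library, with 1.03% in CD24 replicate 2, 0.178% to 0.781% in 5 other libraries of replicate 2 and 0.0642% to 0.264% in replicate 1, so the replicate numbers overlapped.

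T10913G (I249M in ND4) was singled out after its values were seen. No other class allele was at 1% or more throughout a replicate number while staying under 0.5% throughout the other, with Thy replicate 2 left out of the rule. It was at 1.24% in CD45, 1.26% in 6C3, 2.25% in Thy_6C3, 2.04% in CD105, 1.97% in CD24, 1.40% in CD24_CD29 and 2.57% in CD29 of replicate 2. Thy replicate 2 had 2.54% (95% exact interval 2.34 to 2.76). In replicate 1 it ran from 0.00659% to 0.0433%, so the numbers did not overlap. Transitions held 12 and 11 such alleles for replicates 1 and 2, and C>A and G>T held 0 and 0.

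Across all sites of the class, the libraries ranked sites alike. Among the 15 libraries, the mean rho between different subsets was 0.831 within a number (0.744 to 0.917, 49 pairs) and 0.822 across numbers (0.756 to 0.888, 49 pairs). For C>A and G>T the means were 0.781 and 0.772, and for transitions 0.562 and 0.531. These are correlations over sites, which share depth and base composition. They were not tested. High alleles were compared by number over the 63 class alleles at 1% or more in any of the 14 libraries without Thy. Their deviations from the subset mean went together among same-numbered libraries, with a mean r of 0.642 (0.228 to 0.909, 21 pairs of subsets). T10913G, the only class allele high throughout 1 number and low throughout the other, is among the 63. The r without it was not computed, so it is not shown that high alleles in general follow the number.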

How the data were processed

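Sorted cells of 8 subsets gave 16 ATAC-seq libraries, sequenced as paired-end reads of 100 bp per the labels' protocols. The deposited tables hold raw counts, not normalized by the authors: for each library and mitochondrial position, the coverage and how often each other base was read (a count). The submitters' processing notes name bcl2fastq 2.20, cutadapt 2.10, BWA 0.7.17 and the builds GRCm38 and mm10, without roles. Filters on base quality, on duplicate reads and on nuclear copies of the mitochondrial genome can change low fractions; what was used is not given in the sources used here. Read ends shifted for Tn5 do not enter a base count.

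Fractions were counts over coverage, and levels were means over sites. Subsets were tested by their share of the variance of a level (exact permutation over all pairings of libraries, one-sided), and paired or neighbour contrasts by exact sign flips over 7 subsets (two-sided, smallest p = 0.0156), with Benjamini-Hochberg adjustment. For the strand ratio and the neighbour contrasts, the flips measure agreement in direction between subset means. All libraries read the same sites, so these means may not be independent. Functions were tested on simulated data. The members, lists and tests were chosen with earlier results of these data known. Same-numbered libraries deviated together from their subset means. Over the 1098 alleles at 1% or more in any of the 14 libraries without Thy, the lowest r was 0.462 (21 pairs of subsets). With Thy it was 0.343 (28 pairs, 3487 alleles), but 2202 of those alleles belong to the class, which was raised in Thy replicate 2. This pairs the numbers. The labels do not say why. Genes came from RefSeq (GRCm38.p6) and codons from the vertebrate mitochondrial code. Named alleles were the 3 highest of each change in the 15 libraries and in Thy replicate 2, the allele standing out most in each library if at 1% or more, and the 3 highest runs within 5 bases. Tests ran in scipy 1.17.1 and numpy 2.4.6 under Python 3.11.15, tables in pandas 2.3.3, codons in Biopython 1.88 and plots in matplotlib 3.10.9.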

Additional observations from a re-analysis of the deposited data

Results flagged for a closer look

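Within each replicate number the 8 libraries were checked for one far from the others, over 16 sets of values (8 measures of the class in each number). Chance alone flags about 1 in 20 such sets. Thy replicate 2 stood apart for 3 of them. Its mean A>C fraction was 76.5 per 10000, its mean T>G fraction 66.5 per 10000, and its number of A>C and T>G alleles at 1% or more 2178. The class was chosen for these values. The strand ratio and the neighbour contrasts of this library did not stand apart by the same measure.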

How the results depend on the processing

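Of 325 recomputed values, 310 kept their direction where called and their side of the threshold, or stayed within the spread between libraries. With the median over sites, Thy replicate 2 was at 9.40 (A>C) and 9.22 times (T>G) the median of the others, the strand ratio differed between replicate numbers by a log2 value of -0.022 (adjusted exact permutation p = 0.0469), and A before C was at -0.044. Keeping only alleles under 1% in all 16 libraries, which removes sites by their value in Thy replicate 2, left 8108 sites. It gave 8.90 and 8.498 times, a log2 strand ratio of 0.019, -0.064 for A before C and -0.0082 for T before G. With that limit on the other 15 libraries, chosen after seeing the data, A after C was at 0.014 and A before C at -0.053. With a coverage of 5000 or more (8875 sites) these were 0.016 and -0.030. The cause was not tested.

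With a replicate block the share between subsets was 0.609 for A>C, 0.614 for T>G, 0.375 for the strand ratio and 0.653 for the number of alleles, and no call changed. Leaving out 1 library at a time, the A>C share ran from 0.589 to 0.962 and the T>G share from 0.583 to 0.942, both highest without CD24_CD29 replicate 1, the only library whose removal made a call. The comparison of replicate numbers with Thy replicate 1 alone, which has no partner there, and the number of alleles at 1% or more among alleles under 1% give no value. Alleles near 0.0457% cannot be told from 0 in the shallowest library.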
